A study of Mus musculus with 8 samples.

Results

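Glycolysis breaks glucose down to pyruvate in the cytosol, and the pentose phosphate pathway branches off after its first step to make NADPH and ribose phosphate. The 38 genes described here encode glucose importers, the enzymes from hexokinase to pyruvate, the proteins that decide what becomes of pyruvate, and the enzymes of the pentose branch. They were chosen by name, and all 38 were found among the 49492 rows of the deposited count table. All 38 also passed the filter on low counts, which left 17940 genes to test. In activated T cells this pathway is known to run fast even with oxygen present, with much of the pyruvate turned into lactate. T cells in tumours compete with tumour cells for glucose, which is one reason the pathway is followed in them.

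RNA was measured in 8 libraries labelled as CD8+ T cells from tumours of B16, a mouse melanoma line grown under the skin. The 4 knockout libraries carried the label Lckcre-PLPP1fl/fl, that is, loxP-flanked alleles of the phospholipid phosphatase gene Plpp1 together with a Cre recombinase driven by the Lck promoter, which is active in T-lineage cells. The 4 control libraries carried the label PLPP1fl/fl, the same flanked alleles without Cre. The series text describes all mice as female, with cells taken by CD8a beads on day 14, and the labels give neither the age of the mice nor how many there were. Because nothing says that libraries came from separate mice, p-values measure only the spread between libraries, which may be technical.

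Depth was 44118131 to 57716522 counts in a knockout library and 49856353 to 61999941 in a control. Plpp1 had 18, 32, 29 and 19 counts in the knockouts and 61, 50, 35 and 62 in the controls, so it was lower but not at 0 (log2 fold change -0.84, SE 0.26, adjusted p = 0.0064; this and every adjusted p below is from the quasi-likelihood test of edgeR, adjusted by the Benjamini-Hochberg method across all genes tested). The knockout libraries went against the description as female. The Y-linked genes Ddx3y, Eif2s3y, Kdm5d and Uty summed to 190 to 203 CPM (counts per 1000000 counts of the library) in knockouts, against 0.0974 to 0.244 CPM in controls. Xist, the RNA of the inactive X chromosome, stood at 45.6 to 56.3 CPM in knockouts and 715 to 777 CPM in controls. Genotype and these sex-chromosome transcripts cannot be told apart in any comparison below. Markers of the labelled cell type were present: Cd8a, Cd8b1, Cd3d, Cd3e, Cd3g, Trac, Trbc1, Trbc2, Lck and Cd2 summed to 1742 to 1936 CPM in knockouts and 2301 to 2369 CPM in controls. Of these 10, 9 were called lower in knockouts (90%, against 31.6% of all tested genes). Of the melanoma genes, Mlana, Tyr, Tyrp1 and Slc45a2 had 0 counts in all libraries, and the list of 9 summed to 6.26 to 7.71 CPM in knockouts and 19.6 to 21.5 in controls. Pmel made up most of that sum, at 4.32 ± 0.45 CPM in knockouts and 16.9 ± 0.93 CPM in controls. Gpnmb was lower in knockouts too, and Mitf was not called. Neutrophil markers summed to at most 0.278 CPM in knockouts and 0.877 CPM in controls.

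The pathway genes were on the whole higher in the knockout libraries, most clearly among the abundant enzymes. Of the 38 members, 22 were called higher and 8 lower, and 8 were not called (adjusted p under 0.05 over all tested genes). The share called was 78.9%, against 64.3% of all tested genes. By direction, 57.9% of members and 32.8% of all genes were higher, while 21.1% of members and 31.6% of all genes were lower. By step, 10 of 20 members from hexokinase to pyruvate were higher (50%) and 5 lower (25%). At pyruvate fate 5 of 9 were higher (55.6%) and 2 lower (22.2%). In the pentose branch 6 of 7 were higher and 0 lower, and of the 2 glucose importers 1 was higher and 1 lower. The median log2 fold change was 0.18 over the members and -0.01 over all tested genes. Summed over the 38 members, the level was 7202 ± 157 CPM in knockouts and 5537 ± 59 CPM in controls (SD, n = 4 each), so the knockout sum stood at 130% of the control sum. These are bulk values on a relative scale, so fewer cells of a type and less RNA per cell cannot be told apart.

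Level and direction went together. Of the 31 members with at least 10 CPM on average, 22 were higher and 3 lower, a called share of 80.6%. Among all genes at that level 77.6% were called, 43.4% higher and 34.2% lower. The 7 members below 10 CPM were Hk3, Pfkfb2, Pfkfb4, Aldoc, Eno2, Ldhb and Pdk2, of which 5 were lower and 0 higher, against 29.2% lower and 23.2% higher among all genes below that level. In 21 members every knockout library lay above every control (30.1% of all genes), and in 6 members every knockout library lay below (28.2% of all genes). Together that is 27 of 38 members without overlap, where 58.3% of all genes had none. Only Hk2, Aldoc and Pdk2 passed a fitted 2-fold change, against 13.3% of all genes.

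Set on a common scale per kilobase of exon, Pkm, Ldha and Pgk1 had the highest mean levels of the 38 members in both genotypes. Pkm averaged 259 CPM per kilobase in knockouts and 216 in controls, and Ldha 253 in knockouts and 178 in controls. Pgk1 averaged 168 CPM per kilobase in knockouts and 133 in controls, Eno1 161 in knockouts and 101 in controls, and Tpi1 145 in knockouts and 119 in controls. Hk2 stood far below these at 31.6 CPM per kilobase in knockouts and 6.74 in controls, although its fold change was the greatest. Libraries of a genotype lay close together, with coefficients of variation of 0.844% to 10.8% for the 31 members of at least 10 CPM and 4.02% to 30.6% for the 7 below that level.

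**Figure D1:**
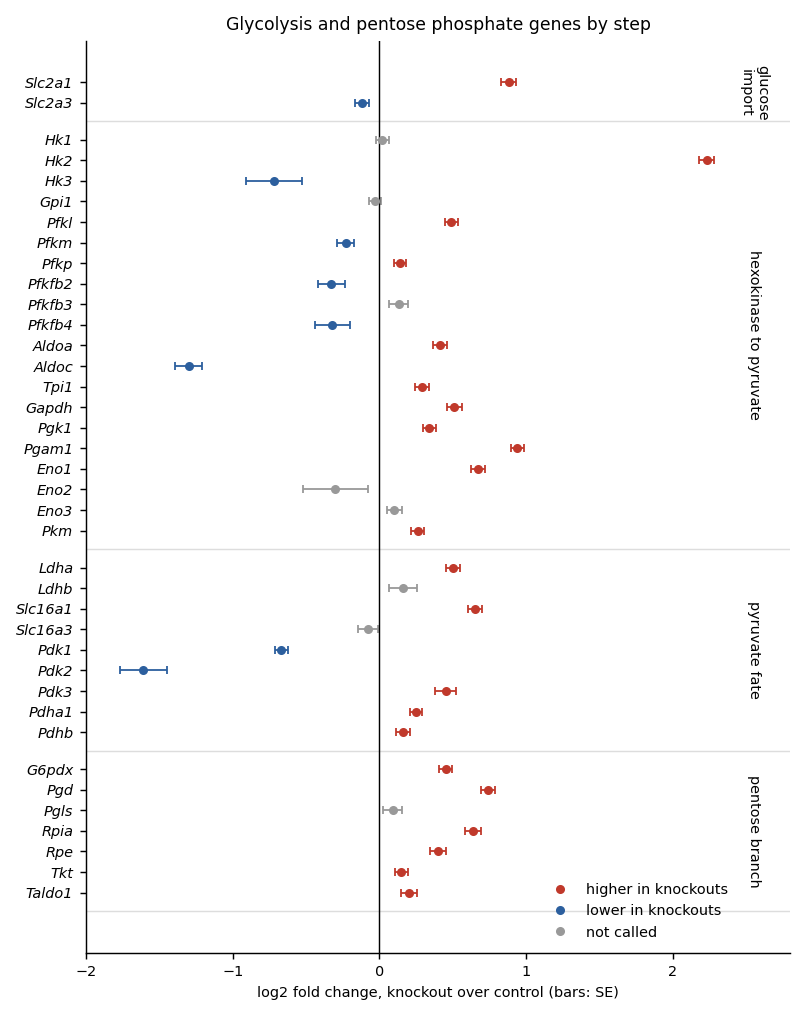
Log2 fold change (knockout over control, x axis) of each of the 38 members, grouped by step down the page, with bars for the SE. Red points were called higher in knockouts, blue points lower and grey points neither, and Hk2 stands farthest right at 2.23 and Pdk2 farthest left at -1.61.

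**Figure D2:**
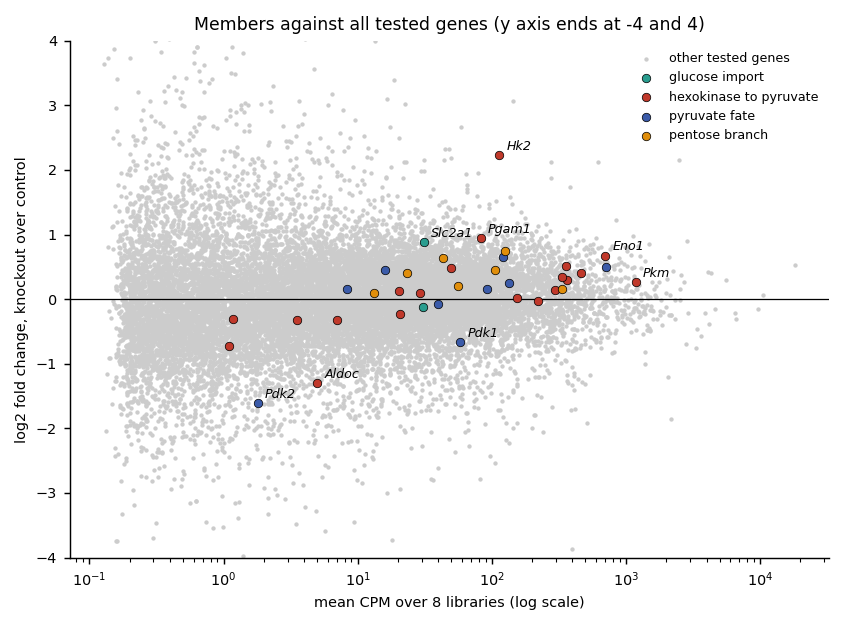
Mean CPM over the 8 libraries (x axis, log scale) against log2 fold change (knockout over control, y axis) for all 17940 tested genes in grey and the members coloured by step. The y axis ends at -4 and 4, so genes beyond that are not drawn; the members with high CPM lie mostly above 0 and those below 10 CPM mostly below it.

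Promoter sequence is shown for the autosomal member with the largest called change in each step (Slc2a1, Hk2, Pdk2 and Pgd), and for Ldha and Pgk1, which are textbook targets of the hypoxia-inducible factors. The bases precede the RefSeq start nearest the gene's 5′ end in the deposited annotation, on GRCm38.p6. For Ldha that start lies 4329 bases from the 5′ end in the deposited annotation, and for Slc2a1 and Pgd 4 and 36 bases next to the start are left out. The windows are chr4:119108495-119108740 on the plus strand for Slc2a1, chr6:82774455-82774704 on the minus strand for Hk2 and chrX:106186850-106187099 on the plus strand for Pgk1. For Ldha they are chr7:46845554-46845803 on the plus strand, for Pdk2 chr11:95041372-95041621 on the minus strand and for Pgd chr4:149166742-149166955 on the minus strand. Capitals mark ACGTG, a form of the core of the hypoxia response element, called the core here and read on either strand. The form GCGTG was not searched. CACGT is the same core on the other strand, and CACGTG, the E-box bound by MYC and related factors, holds the core on both.
Slc2a1: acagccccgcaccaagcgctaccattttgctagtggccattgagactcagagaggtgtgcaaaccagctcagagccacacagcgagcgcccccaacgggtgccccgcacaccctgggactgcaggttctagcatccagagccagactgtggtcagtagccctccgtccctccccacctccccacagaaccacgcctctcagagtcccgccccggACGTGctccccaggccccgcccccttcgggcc
Hk2: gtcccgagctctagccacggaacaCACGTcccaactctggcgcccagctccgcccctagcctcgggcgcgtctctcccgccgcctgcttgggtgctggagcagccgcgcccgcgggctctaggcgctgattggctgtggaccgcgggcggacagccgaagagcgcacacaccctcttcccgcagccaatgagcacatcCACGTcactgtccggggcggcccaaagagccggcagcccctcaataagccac
Pgk1: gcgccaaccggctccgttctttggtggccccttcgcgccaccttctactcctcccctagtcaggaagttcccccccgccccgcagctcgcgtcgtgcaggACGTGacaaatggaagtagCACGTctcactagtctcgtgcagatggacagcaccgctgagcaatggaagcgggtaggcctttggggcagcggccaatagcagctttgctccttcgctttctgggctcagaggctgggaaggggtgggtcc
Ldha: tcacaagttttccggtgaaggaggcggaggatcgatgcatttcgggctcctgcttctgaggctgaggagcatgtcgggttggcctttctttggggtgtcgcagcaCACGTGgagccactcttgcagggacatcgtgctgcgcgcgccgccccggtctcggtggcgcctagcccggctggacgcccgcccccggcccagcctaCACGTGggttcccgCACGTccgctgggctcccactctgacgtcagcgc
Pdk2: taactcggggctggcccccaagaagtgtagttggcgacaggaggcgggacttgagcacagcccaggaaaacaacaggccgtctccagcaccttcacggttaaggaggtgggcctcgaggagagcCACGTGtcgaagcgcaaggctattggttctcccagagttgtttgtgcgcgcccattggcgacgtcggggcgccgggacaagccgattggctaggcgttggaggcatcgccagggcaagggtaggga
Pgd: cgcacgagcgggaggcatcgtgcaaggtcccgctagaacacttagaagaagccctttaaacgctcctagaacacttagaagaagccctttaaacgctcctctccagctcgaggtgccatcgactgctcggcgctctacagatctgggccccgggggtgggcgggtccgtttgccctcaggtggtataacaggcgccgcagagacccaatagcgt
The Ldha window held 2 copies of CACGTG and a further core, and the Pdk2 window held 1 copy of CACGTG. Slc2a1 had 1 core, which straddles the 5′ end of the gene in the deposited annotation. Hk2 and Pgk1 had 2 cores each, and the Pgd window had none. Across 250-base windows, ACGTG on either strand was found for 16 of the 37 members with a window (43.2%), against 24.5% of the 10335 tested genes with one and 18.5% of all 27025 genes with one. CACGTG was found for 6 members (16.2%), against 9.48% of tested genes. Of the 16 members with ACGTG 10 were called higher, and of the 21 without it 12. A match of letters is a description and not a bound site.

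Glucose enters T cells through the carriers GLUT1, encoded by Slc2a1, and GLUT3, encoded by Slc2a3, and the genes moved in opposite directions. Slc2a1 (chromosome 4, bases 119108711 to 119137983, plus strand of GRCm38) stood at 42.2, 39.4, 39.7 and 40.2 CPM in knockouts, against 21.3, 21.5, 22.9 and 21.8 CPM in controls. Every knockout library was above every control, a log2 fold change of 0.88 (SE 0.049, adjusted p = 2.3e-13). Slc2a3 stood at 28.1, 30.9, 30.2 and 29.3 CPM in knockouts, against 32.2, 32.4, 30.9 and 33.3 CPM in controls. Its fall was small (-0.12, SE 0.05, adjusted p = 0.039), the groups met at 30.9 CPM, and the call was lost without knockout replicate 1 (adjusted p = 0.098) or without control replicate 1, 2 or 4 (adjusted p = 0.064, 0.073 and 0.077). Per kilobase of exon, Slc2a1 made up 73.8% ± 1.4 of the counts of the pair in knockouts and 58.4% ± 1.4 in controls (SD, n = 4 each). Such a share is taken within a library, so it does not depend on how libraries are scaled to each other.

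Hexokinase commits glucose to the cell by phosphorylating it, and Hk2, the inducible isozyme, showed the greatest rise among the members. Hk2 (chromosome 6, bases 82725025 to 82774454, minus strand) stood at 188, 200, 196 and 171 CPM in knockouts, against 40.3, 40.8, 41.7 and 38.2 CPM in controls. The fitted change was 4.69-fold (log2 2.23, SE 0.052, adjusted p = 3.8e-20), with a wide gap between the groups. Hk1, the broadly expressed isozyme, stood at 156 ± 8.1 CPM in knockouts and 154 ± 2.3 CPM in controls (SD, n = 4 each), with a log2 fold change of 0.02 (SE 0.045, adjusted p = 0.77). Hk3, known mainly from myeloid cells, was at 0.821 ± 0.088 CPM in knockouts and 1.35 ± 0.25 CPM in controls (log2 fold change -0.72, SE 0.19, adjusted p = 0.0025). The macrophage and monocyte markers as a list summed to 18 to 21.7 CPM in knockouts and 21.1 to 21.4 CPM in controls, with Ccr2, which T cells also express, at 14 CPM in knockouts and 14.4 CPM in controls making up most of the sum. Of the 5 tested genes Csf1r was called higher, at 2 ± 0.25 CPM in knockouts and 1.28 ± 0.25 CPM in controls, and Itgam lower, at 0.557 ± 0.19 CPM in knockouts and 2.26 ± 0.31 CPM in controls (-2.01, SE 0.21, adjusted p = 1.0e-08), with Adgre1, C1qa, C1qb, C1qc and Mrc1 too low to test. Their part in the Hk3 values was not tested. Hk2 supplied 63% ± 1.0 of hexokinase counts per kilobase in knockouts and 26.8% ± 0.85 in controls, and Hk1 36.5% ± 1.0 in knockouts and 71.8% ± 0.70 in controls. The family as a whole stood at 50.1 ± 3.0 CPM per kilobase in knockouts and 25.2 ± 0.31 in controls, or 199% of the control level.

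The next enzymes differed from one another. Gpi1, the isomerase that turns glucose phosphate into fructose phosphate, stood at 220 ± 4.4 CPM in knockouts and 224 ± 4.8 CPM in controls (log2 fold change -0.03, SE 0.042, adjusted p = 0.59). Phosphofructokinase, the main control point of glycolysis, is built from liver, muscle and platelet type subunits. The liver type gene Pfkl stood at 59, 56.8, 57.9 and 58.6 CPM in knockouts, against 39.2, 42.6, 43 and 39.9 CPM in controls (log2 fold change 0.49, SE 0.046, adjusted p = 2.0e-09). Pfkp, the platelet type and the most abundant of the family per kilobase, rose by only 0.14 (SE 0.042, adjusted p = 0.0054), at 311 ± 7.3 CPM in knockouts and 282 ± 5.0 CPM in controls. Pfkm, the muscle type, went the other way, at 17.3, 19.3, 19.7 and 19.5 CPM in knockouts against 22.4, 22, 22.5 and 22.6 CPM in controls (-0.23, SE 0.056, adjusted p = 0.00082). The 3 subunit genes all separated the groups without overlap, as 58.3% of all tested genes did. Pfkl supplied 25% ± 0.73 of the family's counts per kilobase in knockouts and 20% ± 0.56 in controls.

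The PFKFB enzymes make and remove the fructose bisphosphate that signals to phosphofructokinase and activates it, and of the 3 members 2 were called lower and 1 was not called. Pfkfb3, the form known for high kinase activity, had a log2 fold change of 0.13 (SE 0.063, adjusted p = 0.073), with 21.2 ± 1.2 CPM in knockouts and 19.4 ± 1.5 CPM in controls. It was called higher without knockout replicate 1 (adjusted p = 0.04), without control replicate 2 (adjusted p = 0.032) and with a replicate block (adjusted p = 0.045). Pfkfb2 was lower, at 6.27 ± 0.80 CPM in knockouts and 7.87 ± 0.46 CPM in controls (-0.33, SE 0.092, adjusted p = 0.0035). It shares 19.5% of its exon bases with other genes in the table, mostly with the predicted gene Gm29427 on the same strand. Pfkfb4 was lower too, at 3.11 ± 0.37 CPM in knockouts and 3.91 ± 0.38 CPM in controls (-0.32, SE 0.12, adjusted p = 0.018), but the groups overlapped. Its call was lost without knockout replicate 4 (adjusted p = 0.053) or control replicate 2 (adjusted p = 0.078). The family sum stood at 96.9% of the control sum per kilobase.

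From aldolase to pyruvate kinase, the abundant form of every enzyme was higher in knockouts and the minor forms were not. Aldoa, the main aldolase, stood at 519, 525, 508 and 573 CPM in knockouts, against 394, 399, 416 and 390 CPM in controls (log2 fold change 0.41, SE 0.047, adjusted p = 7.0e-08). Aldoc, the form best known from brain, stood at 2.76, 3.03, 2.82 and 2.89 CPM in knockouts, against 6.61, 7.7, 7.12 and 6.96 CPM in controls. That is a fall of 1.30 on the log2 scale (SE 0.094, adjusted p = 2.8e-11), in a gene that gave 0.621% of aldolase counts per kilobase in knockouts and 2.01% in controls. Tpi1, the triose phosphate isomerase, rose by 0.29 (SE 0.045, adjusted p = 6.6e-06), at 399 ± 18 CPM in knockouts and 327 ± 7.2 CPM in controls.

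The steps of glycolysis that yield NADH and ATP all had their main genes higher in knockouts. Gapdh, which makes the NADH of glycolysis, stood at 431, 404, 384 and 450 CPM in knockouts, against 282, 294, 302 and 296 CPM in controls (log2 fold change 0.51, SE 0.05, adjusted p = 5.9e-09). Pgk1, a kinase that makes ATP and whose gene lies on the X chromosome (bases 106187100 to 106203699, plus strand), stood at 375, 381, 353 and 399 CPM in knockouts, against 300, 296, 296 and 300 CPM in controls (0.34, SE 0.045, adjusted p = 6.8e-07). Pgam1, the phosphoglycerate mutase, had the second greatest rise among the members. It stood at 108, 105, 108 and 115 CPM in knockouts, against 54.3, 54.7, 59 and 59.7 CPM in controls (0.94, SE 0.047, adjusted p = 3.3e-14). Eno1, the main enolase, stood at 878, 846, 831 and 904 CPM in knockouts, against 526, 547, 566 and 536 CPM in controls (0.67, SE 0.046, adjusted p = 1.2e-11). Enolases together stood at 178 CPM per kilobase in knockouts and 118 in controls. Every knockout library lay above every control for all 4 genes, as for 30.1% of all tested genes. Pkm, pyruvate kinase, had the highest CPM of the members and rose by 0.26 (SE 0.045, adjusted p = 3.0e-05), at 1293 ± 44 CPM in knockouts and 1082 ± 17 CPM in controls. Gene counts do not separate its splice forms. The minor enolases were not called: Eno3, the muscle form, stood at 30.2 ± 1.1 CPM in knockouts and 28.2 ± 1.4 CPM in controls (adjusted p = 0.093), and Eno2, the neuronal form, at 1.05 ± 0.32 CPM in knockouts and 1.31 ± 0.26 CPM in controls (adjusted p = 0.23).

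Several of these genes have near-identical copies elsewhere in the genome that could take part of their reads. At 95% identity over at least 300 bases, Gapdh had 87 such copies in the table, whose counts came to 29.4% of its own, and Eno1 had 3, whose counts came to 28.7%. Pgam1 had 1 copy, Pgam1-ps2 (18.3%), and Pgk1 had 2, led by Pgk1-rs7 (13.4%). Pfkm had 1 (12.2%), and 6 other members had copies at up to 6.06%. With copies added, the log2 ratio of group means was 0.43 for Gapdh, 0.59 for Eno1, 0.88 for Pgam1 0.33 for Pgk1 and -0.22 for Pfkm, each with the same direction as the gene alone and a slightly smaller size. Pkm shares 15.3% of its exon bases with another gene in the table.

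**Figure D3:**
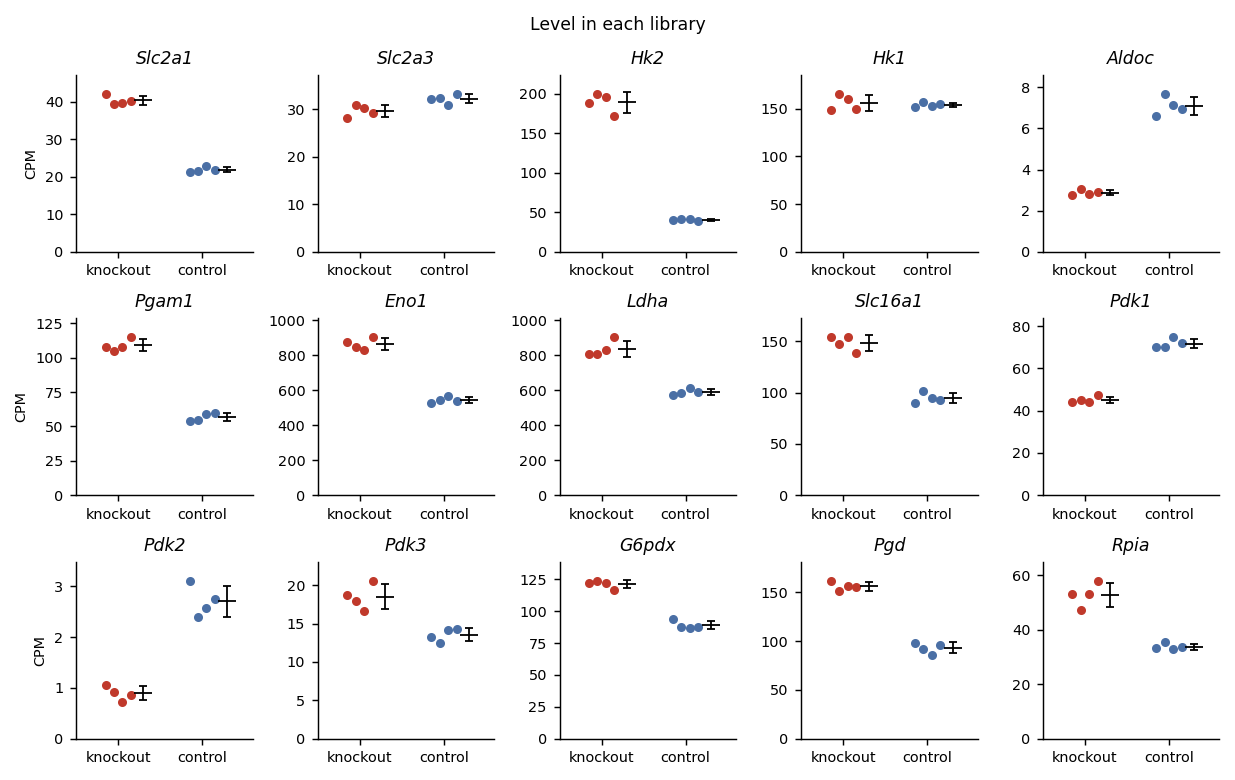
CPM (y axis, from 0) of 15 members in each of the 4 knockout (red) and 4 control (blue) libraries, with the mean and SD in black. The groups are apart in every panel other than Slc2a3 and Hk1, with Aldoc, Pdk1 and Pdk2 lower in knockouts.

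Pyruvate can be reduced to lactate and exported, or enter mitochondria for oxidation by the pyruvate dehydrogenase complex. On the lactate side, Ldha, the isozyme that favours lactate formation, stood at 809, 804, 831 and 903 CPM in knockouts, against 575, 581, 611 and 591 CPM in controls (chromosome 7, bases 46841475 to 46855627; log2 fold change 0.50, SE 0.048, adjusted p = 3.0e-09). Ldhb, which favours the reverse reaction, stood at 8.83 ± 1.3 CPM in knockouts and 7.9 ± 0.64 CPM in controls and was not called (0.16, SE 0.095, adjusted p = 0.16), though it was called higher without knockout replicate 3 (adjusted p = 0.02). Ldha supplied 97.8% ± 0.32 of the counts per kilobase of the pair in knockouts and 97.3% ± 0.23 in controls, with overlapping groups. Slc16a1, the lactate carrier MCT1, stood at 154, 147, 154 and 138 CPM in knockouts, against 89.6, 101, 95 and 92.5 CPM in controls (0.65, SE 0.048, adjusted p = 3.8e-11). Slc16a3, the export carrier MCT4, stood at 38.3 ± 4.1 CPM in knockouts and 40.6 ± 2.9 CPM in controls (-0.08, SE 0.068, adjusted p = 0.31), though it was called lower without knockout replicate 3 (-0.16, adjusted p = 0.026). Slc16a1 made up 82.3% ± 1.3 of the counts per kilobase of the carriers in knockouts and 73.6% ± 2.4 in controls.

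The kinases that switch pyruvate dehydrogenase off did not move together. Pdk1, a well-known target of hypoxia signalling, fell. It stood at 44, 44.9, 44.2 and 47.2 CPM in knockouts and 70.1, 70.2, 74.8 and 71.8 CPM in controls (chromosome 2, bases 71873224 to 71903858; -0.67, SE 0.045, adjusted p = 6.1e-12). Pdk2 showed the strongest fall among the members, at 1.06, 0.916, 0.731 and 0.87 CPM in knockouts and 3.11, 2.4, 2.57 and 2.75 CPM in controls (-1.61, SE 0.16, adjusted p = 5.6e-09), on 42 to 46 counts in a knockout library and 133 to 190 in a control. Pdk3, on the X chromosome, rose, at 18.7, 17.9, 16.7 and 20.6 CPM in knockouts against 13.3, 12.5, 14.2 and 14.3 CPM in controls (0.45, SE 0.069, adjusted p = 5.8e-06). No library of one genotype reached the range of the other in any of the 3 kinases, which held for 58.3% of all tested genes. Per kilobase, Pdk3 became the leading kinase gene in knockouts, at 54.2% ± 1.5 of the family against 34.4% ± 1.0 in controls, while Pdk1 made up 43.7% ± 1.6 in knockouts and 60% ± 1.2 in controls. That lead rests on the deposited exon lengths, 7779 bases for Pdk1 and 2561 for Pdk3. In CPM, Pdk1 stayed higher than Pdk3 in knockouts, at 45.1 ± 1.5 against 18.5 ± 1.7. The family sum stood at 13.3 ± 0.82 CPM per kilobase in knockouts and 15.4 ± 0.58 in controls. The genes of the enzyme they act on rose slightly. Pdha1, the catalytic subunit gene on the X chromosome, stood at 145 ± 5.9 CPM in knockouts and 122 ± 1.4 CPM in controls (0.25, SE 0.043, adjusted p = 2.3e-05), and Pdhb at 97.4 ± 2.6 CPM in knockouts and 87 ± 4.4 CPM in controls (0.16, SE 0.045, adjusted p = 0.0031). Pdha1 shares 16.1% of its exon bases with Map3k15 on the opposite strand.

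**Figure D4:**
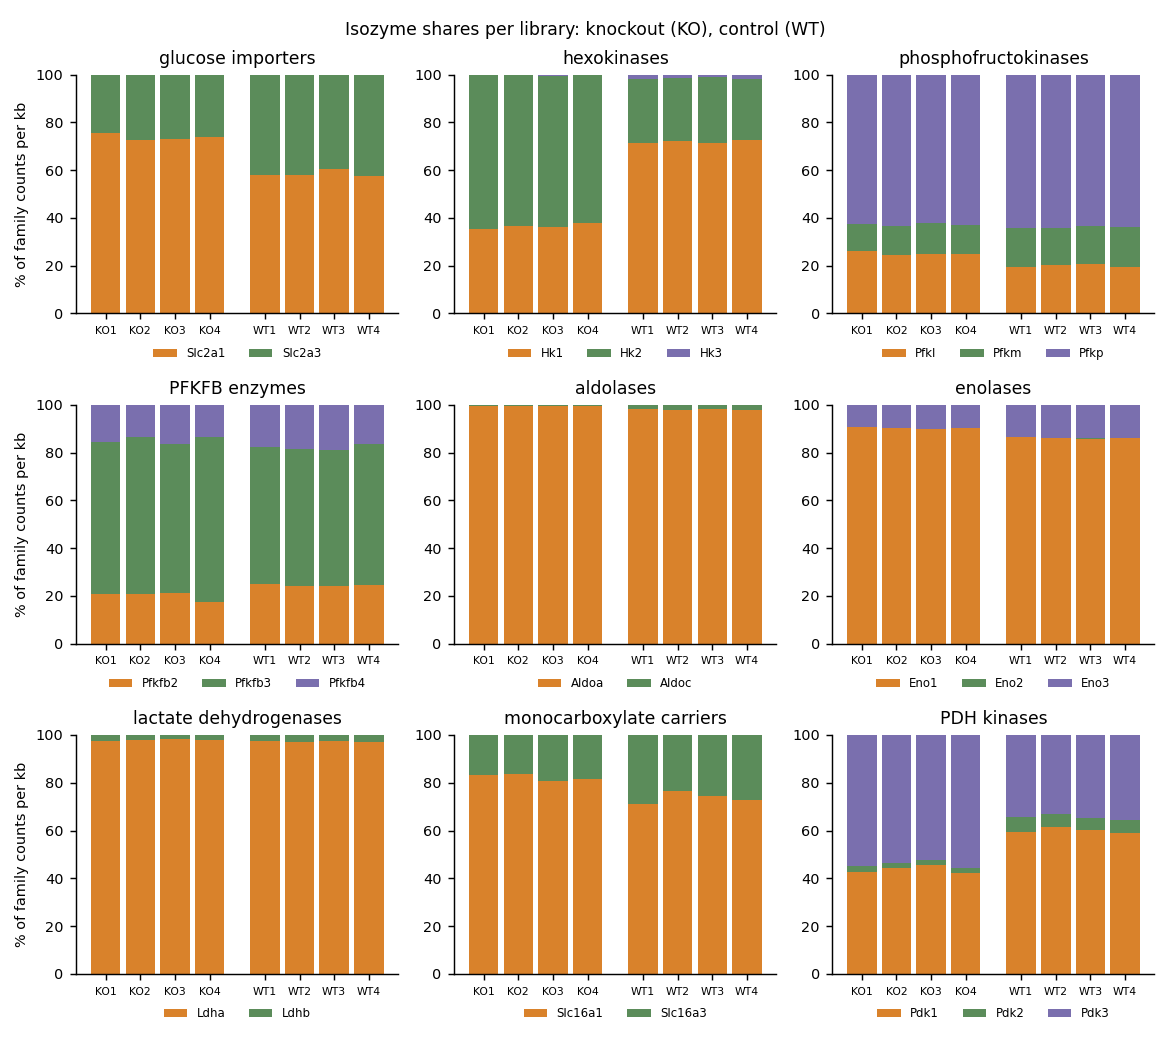
Share of each isozyme in its family (y axis, percent of the family's counts per kilobase of exon) in each knockout (KO1 to KO4) and control (WT1 to WT4) library, for 9 families. Hk2 replaces Hk1 as the larger part in knockouts, and Ldha, Aldoa and Eno1 dominate their families in all libraries. Pdk3 replaces Pdk1 on this per-kilobase scale, though not in CPM.

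In the pentose branch 6 of 7 members rose (85.7%) and 0 fell, against 32.8% higher among all tested genes. All 7 members averaged at least 10 CPM, a level at which 43.4% of all genes were higher. The 7 genes of the branch summed to 783 ± 20 CPM in knockouts and 620 ± 4.5 CPM in controls. Its oxidative arm makes NADPH in its first and last reactions. G6pdx, which encodes the enzyme that controls entry into the branch and lies on the X chromosome (bases 74409483 to 74429194, minus strand), stood at 122, 124, 122 and 117 CPM in knockouts, against 93.5, 87.6, 87 and 88 CPM in controls (log2 fold change 0.45, SE 0.043, adjusted p = 3.2e-09). It shares 13.6% of its exon bases with Ikbkg, an opposite-strand gene at 100 CPM. Pgls, the lactonase between the NADPH-making steps, was the member not called, at 13.7 ± 0.66 CPM in knockouts and 12.8 ± 0.71 CPM in controls (0.09, SE 0.065, adjusted p = 0.22), and it shares 20.6% of its exon bases with Fam129c. Pgd, the second NADPH-making dehydrogenase, had the greatest change among the 7 members of the branch (chromosome 4, bases 149149991 to 149166771). It stood at 162, 151, 156 and 155 CPM in knockouts, against 98.5, 91.9, 86 and 96.2 CPM in controls (0.74, SE 0.047, adjusted p = 2.4e-12).

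The non-oxidative arm interconverts sugar phosphates and supplies ribose for nucleotides. Rpia, the ribose phosphate isomerase, stood at 52.9, 47.2, 53.1 and 58 CPM in knockouts, against 33.2, 35.4, 32.9 and 33.7 CPM in controls (0.64, SE 0.055, adjusted p = 4.8e-10). Rpe, the epimerase, stood at 27.5, 25.3, 26.5 and 27.7 CPM in knockouts, against 19.8, 21, 20.3 and 19.9 CPM in controls (0.40, SE 0.053, adjusted p = 5.6e-07), and shares 17.9% of its exon bases with Kansl1l. Both genes had every knockout library above every control, as had 30.1% of all tested genes. The enzymes that link the branch back to glycolysis changed least among the called members of the branch. Tkt, transketolase, stood at 353 ± 15 CPM in knockouts and 318 ± 7.6 CPM in controls (0.15, SE 0.045, adjusted p = 0.0064). Its call was lost when only genes of at least 10 CPM in 4 libraries were tested (0.10, adjusted p = 0.056), which left 5 of 7 members of the branch higher. Taldo1, transaldolase, stood at 60.1 ± 5.3 CPM in knockouts and 52.3 ± 2.4 CPM in controls (0.20, SE 0.056, adjusted p = 0.003), with overlapping groups.

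Because the libraries differed in Xist, members on the X chromosome were also counted apart. All 4 X-linked members, Pgk1, Pdk3, Pdha1 and G6pdx, were higher in knockouts by 0.25 to 0.45 on the log2 scale. Among all X chromosome genes 22.3% were higher and 37.9% lower, and among autosomal genes 33.1% were higher. The 34 autosomal members gave 18 higher and 8 lower, with a median of 0.15.

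Other genes of these pathways, 73 in the table beyond the members, are described from wider lists. Of 52 that could be tested, 23 were higher (44.2%) and 15 lower (28.8%), against 32.8% and 31.6% of all tested genes, with a median log2 fold change of 0.09. In the wider list for glycolysis, which also holds genes that are not glycolytic enzymes, such as Pgam5, 8 of 20 rose (40%) and 6 fell (30%). These shares were near those of all tested genes. Gpd2, the mitochondrial glycerol phosphate dehydrogenase that takes up NADH electrons from glycolysis, stood at 37.8, 41.5, 41.1 and 39.2 CPM in knockouts, against 16.1, 16.4, 15.2 and 13.6 CPM in controls (1.38, SE 0.059, adjusted p = 2.4e-15). Tigar, a phosphatase known to turn flux towards the pentose branch, stood at 41.1 ± 2.2 CPM in knockouts and 19.3 ± 0.40 CPM in controls (1.09, SE 0.052, adjusted p = 1.6e-14). Adpgk, a glucokinase that uses ADP, rose by 0.63 (SE 0.053, adjusted p = 4.2e-10) and Pgam5, a mitochondrial phosphatase, by 0.67 (SE 0.057, adjusted p = 4.2e-10).

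Around pyruvate 13 of 23 other genes rose (56.5%, against 32.8% of all tested genes) and 4 fell (17.4%, against 31.6%). Bsg, the chaperone that carries MCT1 and MCT4 to the cell surface, stood at 134, 124, 134 and 141 CPM in knockouts, against 77, 77, 78.2 and 79.9 CPM in controls (0.77, SE 0.045, adjusted p = 5.9e-13). Emb, which encodes embigin, another known partner of MCT1, fell, at 153 ± 4.3 CPM in knockouts and 199 ± 3.7 CPM in controls (-0.38, SE 0.042, adjusted p = 3.4e-08). The cytosolic aspartate transaminase gene Got1 rose by 1.04 (SE 0.051, adjusted p = 2.4e-14), the mitochondrial malate dehydrogenase gene Mdh2 by 0.63 (SE 0.051, adjusted p = 1.8e-10) and Gpt2, an alanine transaminase gene, by 0.88 (SE 0.06, adjusted p = 8.0e-12). Of their partners, Got2, the mitochondrial aspartate transaminase gene, rose by 0.43 (SE 0.05, adjusted p = 7.2e-08). Mdh1, the cytosolic malate dehydrogenase gene, and Gpt, the other alanine transaminase gene, were not called. Their log2 fold changes were 0.03 (SE 0.049, adjusted p = 0.66) and -0.25 (SE 0.17, adjusted p = 0.20). In the pentose branch 2 of 9 other genes rose (22.2%) and 5 fell (55.6%), against the same 32.8% and 31.6%. Prps1, which turns ribose phosphate into the precursor of nucleotides, stood at 74.2 ± 4.1 CPM in knockouts and 37.9 ± 5.1 CPM in controls (0.97, SE 0.079, adjusted p = 8.2e-08). Its isozyme gene Prps2 fell slightly, at 20.3 ± 0.58 CPM in knockouts and 23 ± 0.56 CPM in controls (-0.18, SE 0.052, adjusted p = 0.0043). Nadk, which makes NADP from NAD, rose by 0.35 (SE 0.046, adjusted p = 5.2e-07). Rbks, ribokinase, fell by 0.85 (SE 0.081, adjusted p = 3.7e-09) and Idnk, a gluconate kinase gene, by 0.49 (SE 0.059, adjusted p = 1.5e-07).

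Of 16 regulators tested, 6 were higher (37.5%) and 7 lower (43.8%), against 32.8% and 31.6% of all tested genes. Txnip, which lowers glucose uptake by removing GLUT1 from the cell surface, stood at 50.7, 50.2, 56.3 and 52.7 CPM in knockouts, against 138, 148, 146 and 142 CPM in controls (-1.45, SE 0.047, adjusted p = 1.2e-17). Its relative Arrdc4 fell by 0.97 (SE 0.087, adjusted p = 1.0e-09). Myc, a transcription factor that drives glycolytic genes in activated T cells, stood at 163, 160, 168 and 178 CPM in knockouts, against 101, 104, 104 and 103 CPM in controls (0.70, SE 0.044, adjusted p = 2.4e-12). Egln3, a prolyl hydroxylase that marks hypoxia-inducible factors for destruction and is itself induced by them, stood at 16.7 ± 0.40 CPM in knockouts and 6.63 ± 0.76 CPM in controls (1.33, SE 0.076, adjusted p = 3.5e-13). For Txnip, Arrdc4, Myc and Egln3 every knockout library lay on one side of every control, as in 58.3% of all tested genes. Max, which encodes the partner of MYC, fell by 0.31 (SE 0.044, adjusted p = 1.8e-06). Of the genes of the hypoxia-inducible factors, Arnt fell by 0.20 (SE 0.044, adjusted p = 0.0003). Hif1a rose by 0.24 (SE 0.043, adjusted p = 3.3e-05) and Epas1 by 0.95 (SE 0.15, adjusted p = 4.7e-06).

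**Figure D5:**
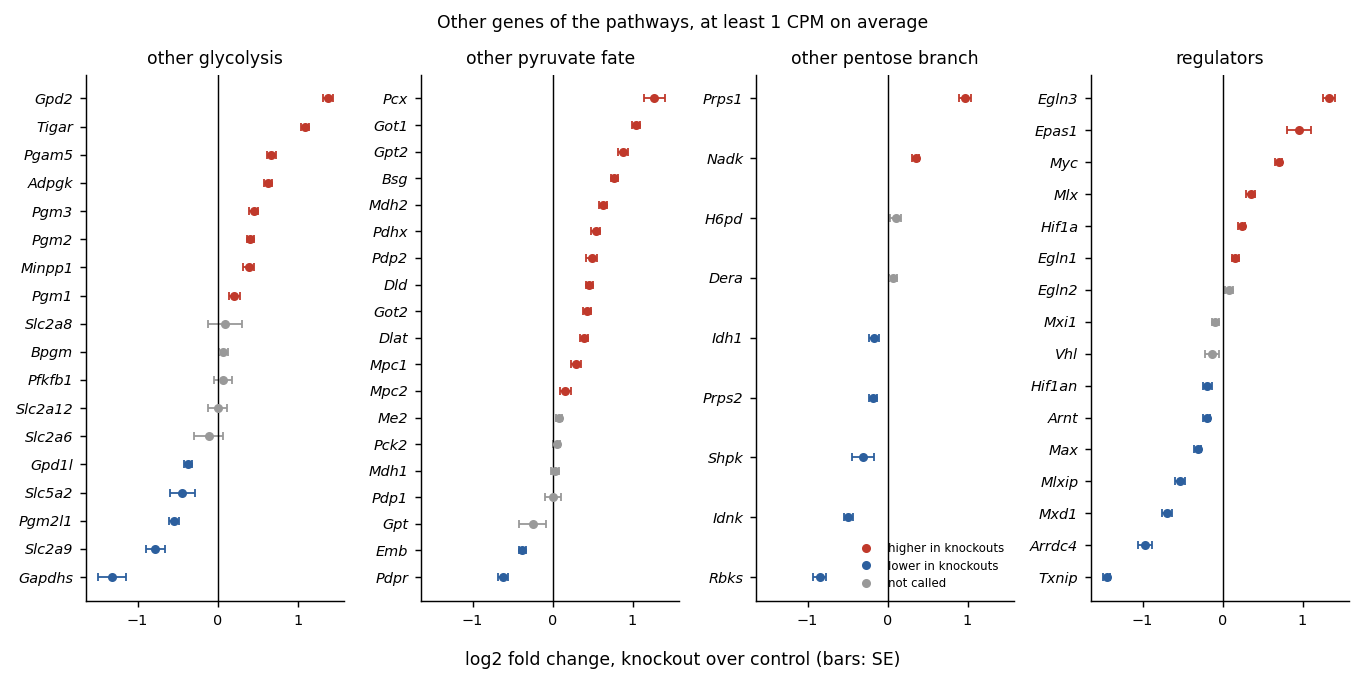
Log2 fold change (knockout over control, x axis, bars for the SE) of the other pathway genes and regulators with at least 1 CPM on average, ordered by value within each list. Gpd2, Tigar, Got1, Egln3 and Prps1 lie near the top of their panels and Txnip at the bottom of the regulators.

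Several marker lists differed between the genotypes, and their part in these results was not tested. Beside the counts of called markers given here, 32.8% of all tested genes were higher and 31.6% lower. Natural killer and gamma-delta T cell markers summed to 134 to 146 CPM in knockouts and 44.6 to 47.8 CPM in controls, with 6 of 8 tested genes higher. Most of the sum was Gzmc (80.7 ± 6.1 CPM in knockouts and 16.1 ± 0.92 in controls) and Eomes (43.4 ± 2.4 in knockouts and 24.4 ± 2.0 in controls). Whether such cells or the CD8 T cells themselves gave these counts was not tested. The 6 were Gzmc, Eomes and the less abundant Klrb1c (1.64 ± 0.38 CPM in knockouts and 0.488 ± 0.21 in controls), Klra7 (5.58 ± 0.45 in knockouts and 1.34 ± 0.13 in controls), Trdc (2.88 ± 0.49 in knockouts and 0.997 ± 0.20 in controls) and Tcrg-C1 (3.6 ± 0.58 in knockouts and 1.66 ± 0.17 in controls). Ncr1, a defining natural killer gene, was not called, at 0.187 ± 0.087 CPM in knockouts and 0.27 ± 0.12 CPM in controls. Mast cell and basophil markers summed to 6.91 to 7.89 CPM in knockouts and 1.43 to 1.57 CPM in controls. B cell markers summed to 88.3 to 97.9 CPM in knockouts and 187 to 201 CPM in controls, nearly all of it Ighm. Endothelial markers, mostly Pecam1, which T cells also express, summed to 25.1 to 30.3 CPM in knockouts and 99.1 to 111 CPM in controls, with Cldn5 at 0 in all libraries. Erythroid genes summed to 11.1 to 13 CPM in knockouts and 5.68 to 6.42 CPM in controls, with 4 of 5 tested genes higher, all of them globins. Dendritic cell markers summed to 3.8 to 4.33 CPM in knockouts and 2.74 to 3.19 CPM in controls, with 1 of 3 tested genes higher and 1 lower. Of the heat shock and dissociation genes, 9 of 12 were called higher (75%), Dusp1 was lower (-0.62, SE 0.066), and Fos and Dnajb1 were not called. They summed to 5107 to 5736 CPM in knockouts and 3861 to 3976 CPM in controls. Most of that sum was Hspa8, at 4729 ± 290 CPM in knockouts and 3536 ± 50 CPM in controls. Mitochondrially encoded genes were lower, with 11 of 13 called downward (84.6%) and sums of 9315 to 9913 CPM in knockouts and 10710 to 12569 CPM in controls.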

How the data were processed

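Stranded mRNA libraries were made, per the labels' protocols. The authors deposited one table of raw counts for every gene, with exon coordinates and lengths. The submitters' processing notes name Trimmomatic 0.36, featureCounts, Subread 1.5.1 and GRCm38, and the aligner, annotation release and strand setting are not stated. Of values from 1 to 10 counts, 85.7% to 87.7% were even, and the cause was not tested. Every row names a gene, and columns were matched to samples by title.

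Genes were filtered with filterByExpr and libraries scaled by TMM. The robust quasi-likelihood F test of edgeR 4.0.16 (R 4.3.3, limma 3.58.1) then compared 4 knockout with 4 control libraries, with two-sided p-values adjusted by Benjamini-Hochberg across the 17940 tested genes and called under 0.05. The SE was taken as the size of the log2 fold change over the root of F. In CPM, which use TMM-scaled totals, a floor of 3 counts is worth 0.0487 to 0.0691, for counting error only. Lengths per kilobase are those of the deposited table. Copies were searched with blastn among GENCODE M21 transcripts, leaving out genes that share exons with the member. Promoters are from RefSeq on GRCm38.p6, cut so that at most 30 bases lie in exons of the gene.

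The members and lists were chosen with earlier results of these data known, so their counts are descriptions. All members are named, with values per library for both glucose importers, for those of smallest adjusted p in each other step and for most members that move against their family. Up to 4 called genes of at least 1 CPM are named from each other list. Mdh1, Got2, Gpt, Emb, Prps2, Max, Arnt, Hif1a, Epas1 and the single marker genes were chosen after their values were seen. Gapdhs, first listed also under the pentose branch, was counted under glycolysis. The test was tried on simulated counts first. Alternatives were DESeq2 1.42.0, other scalings and filters, halved counts, no X and Y chromosome genes, a test against a fold of 1.5, a replicate block and leaving out each library. On halved counts, library pairs of a genotype differed by at least 1.69 times sampling noise, so none was treated as a repeat.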

Additional observations from a re-analysis of the deposited data

Results flagged for a closer look

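In each group of 4 libraries, the gap between the highest or lowest value and its neighbour was compared with the range of the group, for the CPM of each member. Of 76 such groups 3 had a library that stood apart, and chance gives about 1 in 20. Pfkm in knockout replicate 1 was at 17.3 CPM, where the other knockout libraries had 19.3 to 19.7. Pdha1 in control replicate 4 was at 124 CPM, where the other controls had 121 to 122. G6pdx in control replicate 1 was at 93.5 CPM, where the other controls had 87 to 88. In all 3 genes every library of the group was still on its own side of the other genotype.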

How the results depend on the processing

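Leaving aside the test against a fold of 1.5, 31 of the 38 members had the same direction and side of the threshold in every alternative that could be run for them, and 16 of 635 member results differed. The uncalled Hk1 turned to -0.02 with upper-quartile factors, -0.01 with library size alone and -0.04 with the filter of 10 CPM, and ran from -0.02 to 0.03 without single libraries. Against a fold of 1.5, which asks for a larger change, 4 members were higher (2 from hexokinase to pyruvate, 0 at pyruvate fate, 1 in the pentose branch) and 2 lower (1, 1 at pyruvate fate, 0 in glucose import). At this threshold the share of members called higher was close to that of all tested genes. The clear excess of higher members in the main test was therefore not seen here. The number of all genes called higher in KO was then 1516 and of all genes called lower in KO 1629. With at least 10 CPM in 4 libraries, which drops low genes, 21 members were higher, with the call of Tkt lost (adjusted p = 0.056), and 3 lower (1 from hexokinase to pyruvate, 1 at pyruvate fate), the median was 0.24, and 3426 genes were higher and 3413 lower. Without X and Y chromosome genes, which drops Pdk3 and Pdha1, pyruvate fate had 3 higher. Without single libraries, the lower members of glucose import numbered 0 to 1 and the median was 0.15 to 0.25, with 0.25 without knockout replicate 3. Replicate numbers were not shown to pair the libraries: deviations of same-numbered libraries correlated at r = 0.0049 to 0.0574. A replicate block gave 23 higher and 8 lower members, with Pfkfb3 added (adjusted p = 0.045). RLE, upper-quartile and unscaled fits each gave 22 higher and 8 lower, with medians of all genes at -0.04 to -0.01.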
